A study of Mus musculus with 7 samples.

Results

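Each of the 10 surface protein antibodies of a hashed pool of CD11b+ mouse heart cells was compared with the mRNA of the protein it binds, in the same cells. All 10 such antibodies of the pool were taken, of 13 antibody rows there (the other 3 are hashtags) and of 34 antibody rows in both hashed pools of the series, and none was picked for its values. The pairs were Ly6G with Ly6g, Ly6C with Ly6c2, IA_IE with H2-Aa, Cd11c with Itgax, MSR1 with Msr1, CD64 with Fcgr1, F4_80 (F4/80) with Adgre1, TIM4 with Timd4, Cx3cr1 with Cx3cr1 and Ccr2 with Ccr2. They were described per day and in 2 classes of cells, those with at least 200 UMIs of the Ly6G antibody (Ly6G-high) and those with fewer (Ly6G-low). A UMI, or unique molecular identifier, marks 1 captured molecule.

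The study profiled leukocytes of the infarcted mouse heart by single-cell RNA sequencing. This pool came from male C57BL6/J mice with a myocardial infarction made by a coronary ligature, 5 mice on day 1, 5 mice on day 3 and 3 mice on day 5, with no uninfarcted group among them. Blood leukocytes were marked by an intravenous CD45.2 antibody before death, and infarct, border zone and neighbouring myocardium were digested together. Cells of each day got their own CD11b colour after Fc receptor block, and viable CD11b+ cells without the intravenous label were sorted apart by that colour. After the sort, the cells of each day were stained in 1 tube of their own with hashtag 1 (day 1), 2 (day 3) or 3 (day 5) and with the 10 antibodies, and the tubes were then joined in a single droplet library. Each day was thus 1 sample, day and staining tube cannot be told apart, and cells are not replicates, so values are given without tests and their intervals cover counting error only.

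An antibody that carries a DNA tag reports the protein displayed on a cell, while the mRNA count reports what the cell was transcribing shortly before. The 2 readings can part, because a protein may stay on the surface after its mRNA has been degraded, may be taken inside, or may be made from few transcripts, and because any antibody also sticks to cells to some extent without its target. In an infarct, neutrophils, which carry Ly6G, arrive first, Ly6C-high monocytes follow, and macrophages that carry F4/80, CD64 and scavenger receptors then build up. Resident heart macrophages are known for TIM4 and LYVE1, and dendritic cells for class II molecules and CD11c.

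The pool had 5862 barcodes, of which 4277 were used, with 93000471 gene UMIs in all. Several hashtags were found on 6.24% of barcodes and none on 7.98%, 17.4% exceeded 10% mitochondrial UMIs, and 28 barcode sequences also occurred in the blood and heart pool (0 in the 5 CD45+ libraries). The Ly6G-high class held 244, 976 and 279 cells of days 1, 3 and 5 at median depths of 4613, 4106.5 and 4811 gene UMIs, and the Ly6G-low class 252, 1182 and 1344 cells at 19875, 25234 and 27745 gene UMIs. The median total of the 10 antibodies ran the other way. It was 796.5 to 871 UMIs in Ly6G-high and 687 to 691 in Ly6G-low cells. Antibody values below are UMIs per cell, not scaled to depth, while mRNA levels are given per gene UMI. Their ratios are thus on unlike scales.

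The marker genes of neutrophils (9 of 9 detected) summed to 70963, 22451 and 16854 CPM (UMIs per 1000000 gene UMIs of the class) in Ly6G-high cells of days 1, 3 and 5, and to 2323, 1225 and 386 CPM in Ly6G-low cells. Those of monocytes and macrophages (10 of 10 detected) summed to 3124, 9085 and 24041 CPM in Ly6G-high and to 7271, 16082 and 30959 CPM in Ly6G-low cells. The Ly6G-high class thus held more monocyte and macrophage mRNA on each later day. Cells with more UMIs of their own class's marker list than of the other list are called marker-concordant below. They made up 97.1%, 88.0% and 67.0% of Ly6G-high cells and 84.5%, 85.9% and 96.6% of Ly6G-low cells. This choice itself uses neutrophil, monocyte and macrophage genes. Class differences in marker-concordant cells may thus be partly built in for mRNAs that go with those genes, and are given as a description. Eosinophil and mast cell markers were at 0 in all 4 genes in Ly6G-high cells and in any day and class dendritic cell markers summed to at most 46.0, lymphocyte markers to 11.5, those of fibroblasts, endothelial cells or cardiomyocytes to 25.8 and red cell markers to 88.1 CPM. Beside the cut, 31.1% of the 418 cells with 150 to 199 Ly6G antibody UMIs and 71.9% of the 242 cells with 200 to 249 had more neutrophil than monocyte and macrophage marker UMIs.

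Ly6G is a GPI-anchored protein of the Ly6 family used as the defining surface marker of mouse neutrophils. Its gene, Ly6g (ENSMUSG00000022582), lies on the plus strand at chr15:75155240-75159126 in GRCm38. The antibody median was 374.5 UMIs on day 1, 333 on day 3 and 318 on day 5 in Ly6G-high cells, and 109, 115 and 109 in Ly6G-low cells. This separation was made by the cut and is given as a description.

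Ly6g mRNA came to 68 UMIs (44.8 CPM, 95% Poisson interval 34.8 to 56.8) in Ly6G-high cells on day 1. It came to 43 UMIs (5.22 CPM, 3.78 to 7.03) on day 3 and 11 UMIs (2.72 CPM, 1.36 to 4.87) on day 5. Ly6G-low cells held 1, 6 and 0 Ly6g UMIs. The mRNA was therefore found almost wholly where the protein was high, but at very different levels over the days. On day 5 it stood at 0.0607 times its day 1 level (0.0290 to 0.116), while the mean of the antibody stood at 0.877 times and its median at 0.849 times. In marker-concordant Ly6G-high cells Ly6g was at 51.7, 9.96 and 11.2 CPM and its day 5 level was 0.216 times that of day 1 (0.0992 to 0.422), with antibody medians of 373, 335 and 325. In this group, too, the intervals of days 3 and 5 overlapped each other and stood apart from that of day 1.

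Most Ly6G-high cells showed no Ly6g transcript. The share with at least 1 Ly6g UMI was 14.3% on day 1, 2.77% on day 3 and 2.15% on day 5, against 0.397%, 0.338% and 0% in the deeper Ly6G-low cells. After every cell was thinned to 2000 gene UMIs, 7.33% of Ly6G-high cells had one on day 1 (95% exact binomial interval 4.33% to 11.5%), 1.25% on day 3 (0.647% to 2.17%) and 1.84% on day 5 (0.5995% to 4.24%), against 0%, 0.0873% and 0% of Ly6G-low cells. Among those thinned cells on day 1, the antibody median was 388 in the 17 with Ly6g and 381 in the 215 without. The medians were 323 and 335 on day 3 (12 and 948 cells) and 461 and 314 on day 5, where only 5 cells had the transcript. These cells had all been chosen by at least 200 UMIs of the same antibody, so the medians are given as a description.

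Within the Ly6G-high class, cells in the top 25% of the antibody held 22 Ly6g UMIs on day 1 and those in the bottom 25% held 14, a CPM ratio of 1.26 (0.614 to 2.65). The ratio was 3.08 (1.35 to 7.63) on day 3, from 21 and 9 UMIs, and rested on 9 and 1 UMIs on day 5. The interval of day 1 spanned 1. Over all cells of a day, the 3 genes whose mRNA followed the Ly6G antibody most closely were Mmp9, a neutrophil gelatinase, Il1r2, the decoy interleukin-1 receptor, and Csf3r, the G-CSF receptor, with median Spearman rank correlations over the days of 0.660, 0.634 and 0.632. Ly6g itself had a median of 0.107, and at 1.71% of all cells it was under the 5% of cells needed for a place among the 9535 ranked genes. Rank correlations here describe cells of a single library, which share depth and staining.

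**Figure D1:**
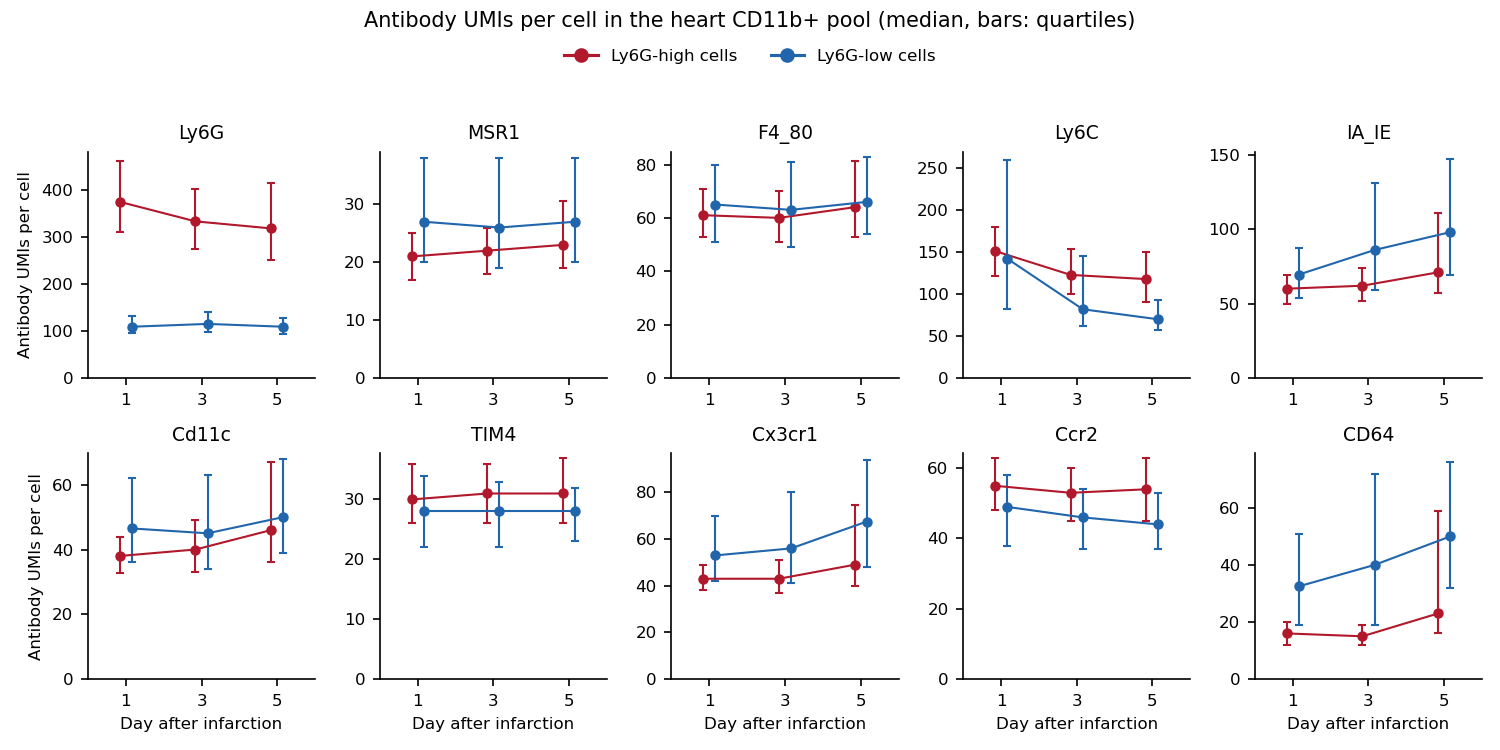
UMIs per cell of the 10 antibodies (vertical axes, each starting at 0) by day after infarction, as medians with quartile bars, for Ly6G-high (red) and Ly6G-low (blue) cells. Ly6C goes from 142.5 to 70 over the days in Ly6G-low cells while IA_IE and CD64 go from 69.5 to 98 and from 32.5 to 50, and TIM4 stays at 28.

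Ly6C is a second GPI-anchored Ly6 protein, abundant on inflammatory monocytes and present at lower amounts on neutrophils. Its mRNA was taken as Ly6c2 (ENSMUSG00000022584, minus strand, chr15:75108158-75111970 in GRCm38), a near neighbour of Ly6g. The Ly6C antibody median in Ly6G-low cells was 142.5 UMIs on day 1, 82 on day 3 and 70 on day 5, and Ly6c2 stood at 186 (175 to 198), 121 (117 to 125) and 32.8 CPM (31.1 to 34.6). Protein and mRNA were both lower on each later day. On day 5 the antibody mean was 0.496 and Ly6c2 0.176 times (0.162 to 0.192) the level of day 1.

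In Ly6G-high cells the Ly6C medians were 151.5, 123 and 118 UMIs and Ly6c2 stood at 434, 127 and 81.2 CPM. The transcript was thus 0.187 times as abundant on day 5 as on day 1 and the antibody mean 0.821 times, the same order as in Ly6G-low cells. The mean of Ly6C in Ly6G-high cells on day 3, 442 UMIs, rested on 1 barcode with 284553 Ly6C UMIs and was 151 without it. The Ly6G-high to Ly6G-low ratio of Ly6C on day 3 was 2.65 by means and 1.50 by medians. The Ly6G-low mean of 167 UMIs held a barcode of 21855 UMIs and was 149 without it, so the Ly6G-high mean without its own barcode lay below the full Ly6G-low mean, and in concordant cells the ratio of means was 0.752 and that of medians 1.49. The direction on day 3 by means thus rests on single barcodes.

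Among all genes, Ly6c2 followed its antibody most closely in Ly6G-low cells. Spearman rank correlation was 0.520 on day 1 (252 cells), 0.620 on day 3 (1182 cells) and 0.391 on day 5 (1344 cells), and the median of the days put Ly6c2 in place 1 of 9910 genes detected in at least 5% of the class. Next came Vcan (versican, 0.483) and Chil3 (a chitinase-like secreted protein, 0.474), both known from Ly6C-high monocytes. Cells in the top 25% of the antibody (median 287 UMIs on day 3) held 438 CPM of Ly6c2 and those in the bottom 25% (51 UMIs) 8.41 CPM, a ratio of 52.1 (39.9 to 69.3). The same ratio was 16.4 (10.1 to 28.3) on day 1 and 54.5 (33.9 to 93.8) on day 5. No interval of the 3 days came near 1.

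In Ly6G-high cells the Ly6c2 rank correlations were lower, 0.291, 0.278 and 0.383, and Ly6c2 took place 33 of 7720. Of 4 other Ly6 genes, Ly6c1 was at 1.32, 0.485 and 0 CPM in Ly6G-high and at 23.3, 1.49 and 1.09 CPM in Ly6G-low cells, but the 23.3 CPM were 121 UMIs of 1 cell of 252, and days 3 and 5 rested on 3 and 6 cells, so its order between the classes is not read. Ly6a, Ly6e and Ly6i were neither 2-fold higher nor lower on all 3 days, where 4.46% of all genes were higher and 0.204% lower (9.18% and 16.5% in concordant cells). In concordant cells Ly6i was at 38.0, 17.2 and 10.1 CPM in Ly6G-high and at 5.94, 5.33 and 2.12 CPM in Ly6G-low cells, over 2-fold higher on each day. The 10.1 CPM of day 5 rested on 9 UMIs in 6 of 187 cells (4.60 to 19.1 CPM). Over all cells of day 5 Ly6i was at 2.97 CPM in Ly6G-high and 2.10 CPM in Ly6G-low cells. Ly6e, a widely expressed member, had a rank correlation of 0.256 with the Ly6C antibody in Ly6G-low cells (place 94). Ly6c1 and Ly6c2 are near-identical copies: 90 of the 451 words of 50 bases in the last 500 bases of their transcripts occur in both, so their counts are not fully separate, while Ly6g shares 0 such words with either.

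IA_IE is the class II complex that presents antigen to CD4 T cells. Only its I-A form reaches the surface in C57BL/6 mice, and its alpha chain is encoded by H2-Aa (ENSMUSG00000036594, minus strand, chr17:34282744-34287823). In Ly6G-low cells the antibody median was 69.5 UMIs on day 1, 86 on day 3 and 98 on day 5, and H2-Aa was at 655 (633 to 678), 684 (675 to 693) and 754 CPM (746 to 763). The mean of the antibody on day 5 was 1.71 times that of day 1 and H2-Aa was 1.15 times (1.11 to 1.19). The antibody in UMIs per cell was thus further apart between the days than its mRNA in CPM. Before scaling to depth, H2-Aa came to 3406 UMIs in 252 cells on day 1 and 30577 UMIs in 1344 cells on day 5. Per cell it was thus also higher on day 5.

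Much of the class II signal sat in few cells. In Ly6G-low cells of day 5 the 95th percentile of the antibody was 653 UMIs and the highest cell had 7296, while H2-Aa was detected in 51.1% of the cells. The top 25% of the antibody (median 244.5 UMIs) held 2233 CPM of H2-Aa on day 5 and the bottom 25% (54 UMIs) 93.8 CPM. This was a ratio of 23.8 (21.8 to 26.0), after ratios of 27.2 (20.5 to 36.9) on day 1 and 32.6 (28.0 to 38.2) on day 3. The 3 ratios overlapped in their intervals except for days 3 and 5.

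The 3 genes closest to the IA_IE antibody were all chains of class II molecules: H2-Eb1 (median rank correlation 0.484), H2-Aa (0.484) and H2-Ab1 (0.478). H2-Aa had rank correlations of 0.540, 0.474 and 0.484 on the 3 days and place 2. Of the other class II genes, H2-DMb1, part of the peptide loader, took place 5, Cd74, the invariant chain, place 6, Ciita, the master regulator of class II transcription, place 14 and H2-DMa place 54. None of the 5 that reached 10 CPM (all but Ciita) was 2-fold higher or lower in Ly6G-high cells on all 3 days. In concordant cells, where 16.5% of all genes were 2-fold lower on all 3 days, all 5 were, with H2-Ab1 at 67.7, 47.8 and 52.5 CPM against 744, 713 and 671, and Cd74 at 246, 230 and 183 CPM against 2158, 1974 and 1875. In Ly6G-low cells H2-Aa followed no other antibody as closely: its next highest rank correlation was 0.145, with Cd11c. In Ly6G-high cells it had 0.167 with IA_IE (place 4862 of 7720) and 0.192 with Cd11c.

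In Ly6G-high cells the IA_IE medians were 60, 62 and 71 UMIs, and H2-Aa stood at 96.3, 77.4 and 481 CPM. H2-Aa was 5.00 times (4.22 to 5.96) as abundant on day 5 as on day 1. In marker-concordant Ly6G-high cells it stood at 57.8, 51.5 and 51.4 CPM, with antibody medians of 60, 60 and 61. Both readings were level over the days in those cells.

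**Figure D2:**
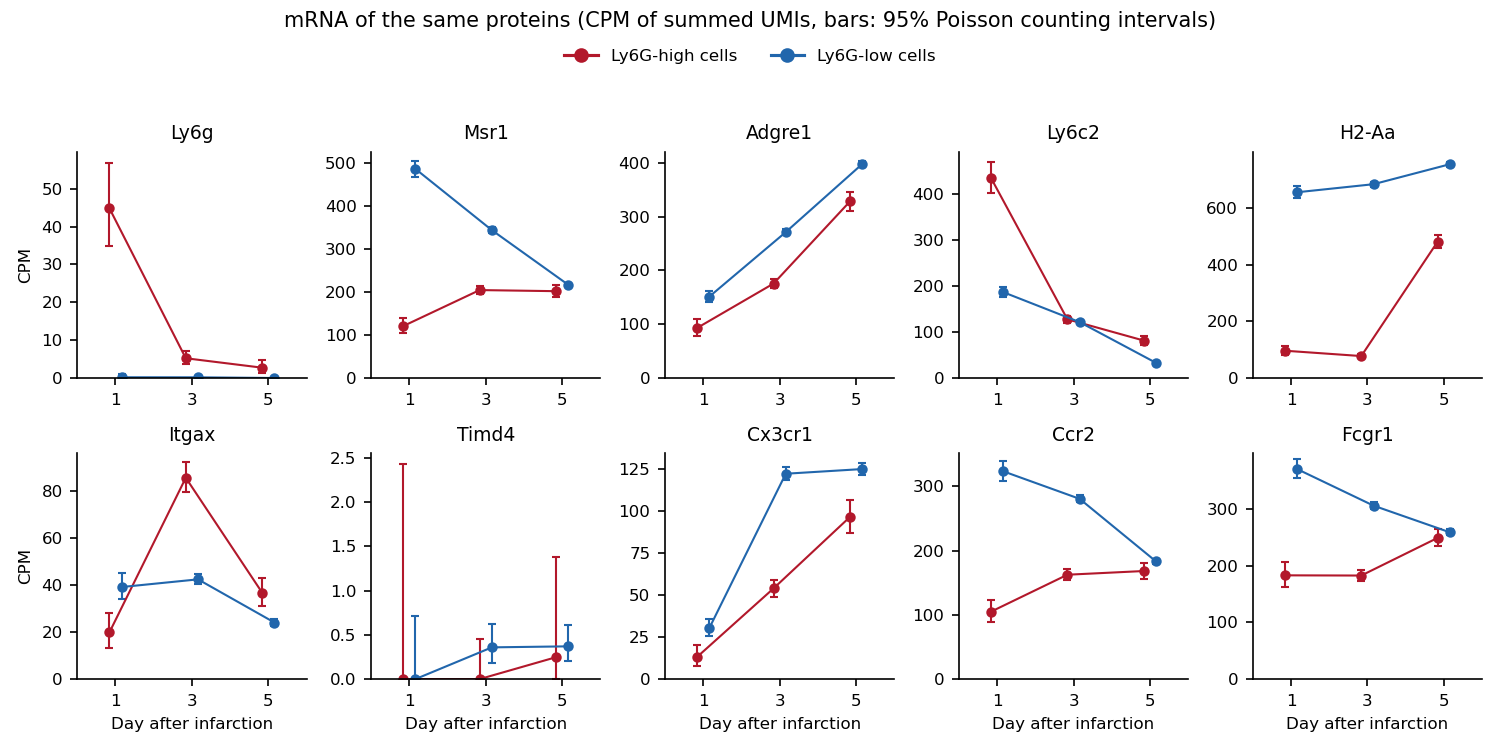
CPM of the mRNA of each antibody's protein (vertical axes, each starting at 0 and with its own scale) by day after infarction, for Ly6G-high (red) and Ly6G-low (blue) cells, with 95% Poisson counting intervals. Ly6g goes from 44.8 to 2.72 CPM in Ly6G-high cells, Msr1, Ccr2 and Fcgr1 start apart in the 2 classes and lie close on day 5, and Timd4 stays below 1 CPM. In marker-concordant cells of day 5, not drawn, Msr1, Ccr2 and Fcgr1 in Ly6G-high cells were at 0.215, 0.326 and 0.171 times their Ly6G-low CPM.

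Cd11c is the integrin alpha X chain, found on dendritic cells and on some macrophages, and is encoded by Itgax (ENSMUSG00000030789, plus strand, chr7:128129547-128150657). Antibody medians were 46.5, 45 and 50 UMIs in Ly6G-low and 38, 40 and 46 UMIs in Ly6G-high cells. Itgax was at 39.1, 42.3 and 24.0 CPM in Ly6G-low cells and at 19.8, 85.4 and 36.6 CPM in Ly6G-high cells. On day 3 the classes were thus in opposite order by antibody UMIs per cell and by mRNA CPM. Itgax CPM was 2.02 times (1.84 to 2.21) as high in Ly6G-high cells and the antibody mean 0.808 times. Before scaling to depth, Itgax came to 704 UMIs in 976 Ly6G-high cells and 1416 UMIs in 1182 Ly6G-low cells. Per cell its order was thus that of the antibody.

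The marker-concordant cells showed the difference in CPM more strongly. Itgax in concordant Ly6G-high cells was at 17.5, 131 and 92.7 CPM, so 5.30 times (3.31 to 8.82) as abundant on day 5 as on day 1, while the antibody median went only from 38 to 39 and 40 UMIs. In Ly6G-low cells the rank correlation of Itgax was 0.107, 0.283 and 0.265 (place 281), and the top 25% of the antibody held 1.25 (0.790 to 2.03), 2.49 (2.04 to 3.06) and 3.53 times (2.78 to 4.55) the Itgax CPM of the lowest. In Ly6G-high cells the same ratio was 1.89 (0.528 to 10.3) on day 1, 0.698 (0.552 to 0.888) on day 3 and 0.467 (0.264 to 0.873) on day 5, while the rank correlation was 0.184, 0.134 and 0.127. Before scaling to depth, the top 25% there held more Itgax, 302 against 95 UMIs on day 3 and 55 against 16 on day 5. The top and bottom 25% had equal numbers of cells. The genes closest to the Cd11c antibody in Ly6G-low cells were Tuba1b, a tubulin, Vcp, an ATPase that extracts proteins for degradation, and Uap1l1, with rank correlations of 0.372, 0.363 and 0.358. The other integrin genes listed, Itgam (CD11b, on which the cells were sorted) and Itgb2 (the shared beta chain), followed the Cd11c antibody with rank correlations of -0.0533 and 0.0331.

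MSR1, the class A macrophage scavenger receptor, takes up modified lipoproteins and is encoded by Msr1 (ENSMUSG00000025044, minus strand, chr8:39581685-39642673). Its antibody medians were flat at 27, 26 and 27 UMIs in Ly6G-low cells. There Msr1 was at 486 (467 to 505), 344 (337 to 350) and 216 CPM (212 to 221). The mRNA CPM on day 5 was 0.446 times that on day 1 (0.426 to 0.466) and the antibody mean 0.941 times. Before scaling to depth, Msr1 came to 2525 UMIs in 252 cells on day 1 and 8776 UMIs in 1344 cells on day 5. Per cell it was thus also lower on day 5, by less than in CPM. The intervals of the mRNA on the 3 days did not overlap, while the quartiles of the antibody were 20 and 38, 19 and 38, and 20 and 38 UMIs.

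Within a day the MSR1 antibody did follow Msr1. The rank correlation was 0.449, 0.457 and 0.255 in Ly6G-low cells (place 13), and the top 25% of the antibody held 1.99 (1.72 to 2.31), 1.92 (1.79 to 2.07) and 1.55 times (1.45 to 1.66) the Msr1 CPM of the lowest. The genes ahead of it included Pf4, a platelet chemokine that macrophages also make (0.522), Arg1, the arginine-degrading enzyme of wound macrophages (0.514), and Mrc1, the mannose receptor CD206 (0.5004). Of the other scavenger receptors, Cd36 took place 45 and Cd163 place 2642, and Marco was in too few cells to be ranked. In Ly6G-high cells Msr1 stood at 121, 204 and 202 CPM, and in concordant ones at 79.1, 52.5 and 46.9 CPM with antibody medians of 20, 21 and 21 UMIs.

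CD64 is the high-affinity receptor for IgG and is widely used to tell macrophages from dendritic cells. Its gene is Fcgr1 (ENSMUSG00000015947, minus strand, chr3:96282909-96293969). In Ly6G-low cells the antibody median was 32.5 UMIs on day 1, 40 on day 3 and 50 on day 5, while Fcgr1 was at 371 (355 to 388), 306 (301 to 313) and 259 CPM (254 to 264). Antibody UMIs per cell and mRNA CPM thus went in opposite directions over the days. On day 5 the mean of the antibody was 1.54 times and Fcgr1 CPM 0.699 times (0.666 to 0.734) its day 1 level. Before scaling to depth, Fcgr1 came to 1929 UMIs in 252 cells on day 1 and 10512 UMIs in 1344 cells on day 5. Per cell it was thus not lower on day 5. The share of Ly6G-low cells with Fcgr1 was 80.2%, 80.6% and 88.5%, and after thinning 44.0%, 35.8% and 36.9%.

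By medians, CD64 also separated the classes more than any antibody apart from Ly6G. Ly6G-high medians were 16, 15 and 23 UMIs, 0.492, 0.375 and 0.460 times those of Ly6G-low cells, and Fcgr1 was 0.494, 0.597 and 0.962 times as abundant. In concordant cells Fcgr1 was 0.389, 0.1796 and 0.171 times as abundant in Ly6G-high cells and the antibody medians were 0.457, 0.286 and 0.353 times. The antibody median ratio was above that of the mRNA CPM on each day in concordant cells. Over all cells it was below that of the CPM on days 3 and 5, a comparison on unlike scales. Before scaling to depth, Fcgr1 came to 1508 UMIs in 976 Ly6G-high and 10256 UMIs in 1182 Ly6G-low cells on day 3. On day 5 it came to 1008 UMIs in 279 and 10512 UMIs in 1344 cells. Per cell the classes were thus further apart in Fcgr1 than by CPM on both days.

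The rank correlation of CD64 with Fcgr1 in Ly6G-low cells was 0.554, 0.442 and 0.202 (place 36), and it was 0.229 (place 335) in concordant Ly6G-low cells. Ahead of Fcgr1 came Dab2, an endocytic adaptor (0.593), Grn, the lysosomal progranulin (0.579), and Ccl7, a monocyte-attracting chemokine (0.540). CD64 was the antibody most correlated with Msr1 (0.507) and Adgre1 (0.413) as well as with its own mRNA (0.442), so it followed those 2 transcripts more closely than their own antibodies did. The other Fc receptor genes took places 1218 (Fcgr2b), 1898 (Fcgr3), 2464 (Fcgr4) and 9287 (Fcer1g, the shared signalling chain), and none of the 4 was 2-fold higher or lower in Ly6G-high cells on all 3 days, beside 4.46% of all genes higher and 0.204% lower. In concordant cells 1 of the 4, Fcgr2b, was lower, beside 16.5% of genes, at 176, 73.1 and 51.4 CPM in Ly6G-high against 471, 263 and 287 CPM in Ly6G-low cells.

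F4_80 detects an adhesion G protein-coupled receptor of mature macrophages that is encoded by Adgre1 (ENSMUSG00000004730, plus strand, chr17:57358691-57483527). The antibody medians were 65, 63 and 66 UMIs in Ly6G-low cells and 61, 60 and 64 UMIs in Ly6G-high cells. Adgre1 was at 151 (141 to 162), 271 (265 to 277) and 397 CPM (391 to 404) in Ly6G-low cells. The mRNA was higher on each later day, by 2.63 times (2.45 to 2.83) from day 1 to day 5, and the mean of the antibody 1.04 times. In concordant Ly6G-high cells Adgre1 was at 91.3, 66.1 and 106 CPM, 0.582, 0.240 and 0.264 times the level of concordant Ly6G-low cells, and the medians of the antibody were 60, 58 and 59 UMIs. The F4_80 medians of concordant Ly6G-high cells were 0.909, 0.879 and 0.887 times those of concordant Ly6G-low cells, so the antibody was closer between the classes than its mRNA.

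The rank correlation of F4_80 with Adgre1 in Ly6G-low cells was 0.366, 0.358 and 0.246 (place 36), behind Pf4 (0.435), Ctsd (cathepsin D, 0.414) and Sash1 (0.410). The ratio of the top to the bottom 25% was 1.60 (1.25 to 2.07), 1.59 (1.47 to 1.71) and 1.29 (1.23 to 1.36). The related adhesion receptor genes Adgre4 and Adgre5 had rank correlations of -0.00452 and -0.0889 with this antibody.

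TIM4 is a phosphatidylserine receptor by which resident macrophages bind dying cells, and its gene is Timd4 (ENSMUSG00000055546, plus strand, chr11:46810800-46844332). The antibody medians were 28 UMIs on all 3 days in Ly6G-low cells and 30, 31 and 31 in Ly6G-high cells, with 95th percentiles of at most 42 and 55. Timd4 had 28 UMIs in 7 of the 4277 cells: 0, 12 and 15 UMIs in Ly6G-low and 0, 0 and 1 in Ly6G-high cells. The antibody thus gave a median of 28 to 31 UMIs where the mRNA was at or near 0. The absence of a UMI in the 252 Ly6G-low cells of day 1 allows a share of up to 1.19% of cells with one.

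Those 7 cells, looked up after their values were seen, differed among themselves. In Ly6G-low cells of day 5, the cell with 8 Timd4 UMIs had 191 TIM4 antibody UMIs, the highest of 1344, and also 22 Lyve1 and 14 Folr2 UMIs, both genes of resident macrophages. The cell with 5 Timd4 UMIs had 50 (place 16), and the cell with 2 had 24 (place 904). On day 3 the cell with 6 Timd4 UMIs had 41 antibody UMIs (place 58 of 1182) and the 2 cells with 3 each had 30 and 22 (places 438 and 884). The Ly6G-high cell of day 5 with 1 Timd4 UMI had 40 (place 44 of 279). Of the resident macrophage genes, Folr2 was at 45.0, 86.1 and 113 CPM in Ly6G-low cells, Lyve1 at 0, 5.68 and 1.95, Vsig4 at 0, 0.149 and 1.55, and Cd163 at 88.5, 9.29 and 5.43 CPM. The genes closest to the TIM4 antibody were Msr1, Il3ra and Commd3, with rank correlations of at most 0.209, and Folr2 took place 290.

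Cx3cr1 is the receptor for fractalkine, found on patrolling monocytes and on many tissue macrophages (ENSMUSG00000052336, minus strand, chr9:119901616-120069879). In Ly6G-low cells the antibody median was 53 UMIs on day 1, 56 on day 3 and 67.5 on day 5, and the mRNA was at 30.4 (25.8 to 35.5), 122 (119 to 126) and 125 CPM (122 to 129). Over the days both were higher, the mRNA 4.11 times (3.51 to 4.85) and the antibody mean 1.33 times on day 5. Within a day, antibody UMIs and the mRNA per gene UMI were hardly related by rank in these cells. The rank correlation was 0.0344 on day 1, 0.152 on day 3 and near 0 on day 5, and Cx3cr1 took place 9283 of 9910. The top 25% of the antibody held 2.34 times (1.30 to 4.58) the Cx3cr1 CPM of the lowest on day 1, and 0.864 (0.773 to 0.967) and 0.730 times (0.670 to 0.796) on days 3 and 5. On those later days the cells with most Cx3cr1 antibody thus held less of the transcript per gene UMI. Before scaling to depth they held more of it, 1302 against 419 UMIs on day 3 and 1447 against 826 on day 5. The top and bottom 25% had equal numbers of cells.

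The Cx3cr1 antibody followed Grn (0.514), Dab2 (0.510) and Pf4 (0.496), genes that also led for CD64, MSR1 or F4_80. In Ly6G-high cells the rank correlation with its own mRNA was 0.0545, 0.344 and 0.412 (place 201 of 7720). There its medians were 43, 43 and 49 UMIs and the mRNA stood at 13.2, 54.0 and 96.5 CPM. In concordant Ly6G-high cells these were 43, 42 and 44 UMIs and 11.4, 31.6 and 20.1 CPM, so the antibody was level while the counting intervals of the mRNA on days 1 and 3 stood apart.

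Ccr2 is the receptor for CCL2 that brings monocytes out of bone marrow and into inflamed tissue (ENSMUSG00000049103, plus strand, chr9:124101950-124113557). In Ly6G-low cells the antibody median was 49, 46 and 44 UMIs and Ccr2 mRNA was at 323 (308 to 339), 280 (275 to 286) and 183 CPM (179 to 187). On day 5 the mRNA CPM was 0.566 times (0.537 to 0.597) and the antibody mean 0.941 times its level of day 1. Before scaling to depth, Ccr2 came to 1680 UMIs in 252 cells on day 1 and 7417 UMIs in 1344 cells on day 5. Per cell it was thus lower on day 5 by less than in CPM. In Ly6G-high cells the antibody medians were higher, 55, 53 and 54 UMIs, and the mRNA lower, 105, 162 and 168 CPM. The antibody median was 1.12, 1.15 and 1.23 times as high in Ly6G-high cells and the mRNA 0.324, 0.579 and 0.919 times. The TIM4 antibody, with its mRNA at or near 0, had class ratios of 1.07, 1.11 and 1.11, and in Ly6G-low cells the Ccr2 antibody had a rank correlation of 0.526 with it. How much of the Ccr2 antibody difference is background binding was not tested.

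Among concordant cells Ccr2 mRNA was at 0.224, 0.229 and 0.326 times and the antibody median at 1.10, 1.11 and 1.16 times. The rank correlation of the antibody with Ccr2 was 0.172, 0.0702 and 0.0974 in Ly6G-low cells (place 3338), and the ratios of the top to the bottom 25% were 1.30 (1.11 to 1.53), 1.07 (1.00 to 1.14) and 1.31 (1.22 to 1.40). Ccr2 mRNA followed the Ly6C antibody better, with a median rank correlation of 0.367 and place 9 in its list. The genes closest to the Ccr2 antibody, Por, Sh3bp5 and Ctsl (cathepsin L), reached rank correlations of 0.224, 0.222 and 0.220. Of the other chemokine receptor genes reported here, Ccr1 and Cxcr2 were more than 2-fold higher in Ly6G-high cells on all days. So were 4.46% of all genes, and Cxcr2 is itself on the neutrophil marker list. Cxcr4 was so in concordant cells (627, 962 and 803 CPM against 170, 247 and 352), beside 9.18% of all genes, but not over all cells.

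**Figure D3:**
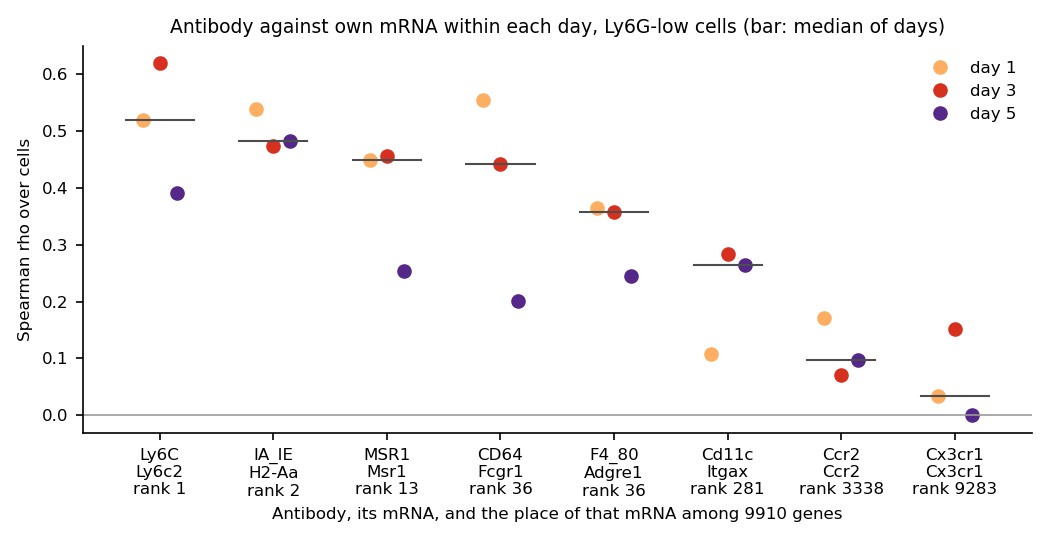
Spearman rank correlation over Ly6G-low cells between each antibody and its own mRNA (vertical axis) for days 1, 3 and 5 (points) with their median (bar), for the 8 antibodies whose mRNA could be ranked. Median values go from 0.520 for Ly6C to 0.0344 for Cx3cr1, and the labels give the place of the own mRNA among 9910 genes.

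The own mRNA was among the 10 genes closest to the antibody for 2 of the 10 antibodies, Ly6C and IA_IE, in Ly6G-low cells, where 0.101% of the ranked genes can hold such a place. Ly6g and Timd4 were in under 5% of these cells and had no place. The places of the other 6 ran from 13 to 9283. Over Ly6G-low cells, MSR1, F4_80, Cd11c, Cx3cr1 and CD64 antibody UMIs had rank correlations of 0.610 to 0.623 with the total of gene UMIs, against 0.469 for IA_IE, 0.349 for Ccr2, 0.315 for TIM4, 0.164 for Ly6G and 0.111 for Ly6C. The part of depth in the own-mRNA values was not tested beyond thinning. With every cell thinned to 2000 gene UMIs the median rank correlation was 0.494 for IA_IE (place 1) and 0.353 for Ly6C (place 3), and it went to 0.208 for MSR1, 0.174 for CD64, 0.155 for F4_80 and 0.0701 for Cd11c.

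**Figure D4:**
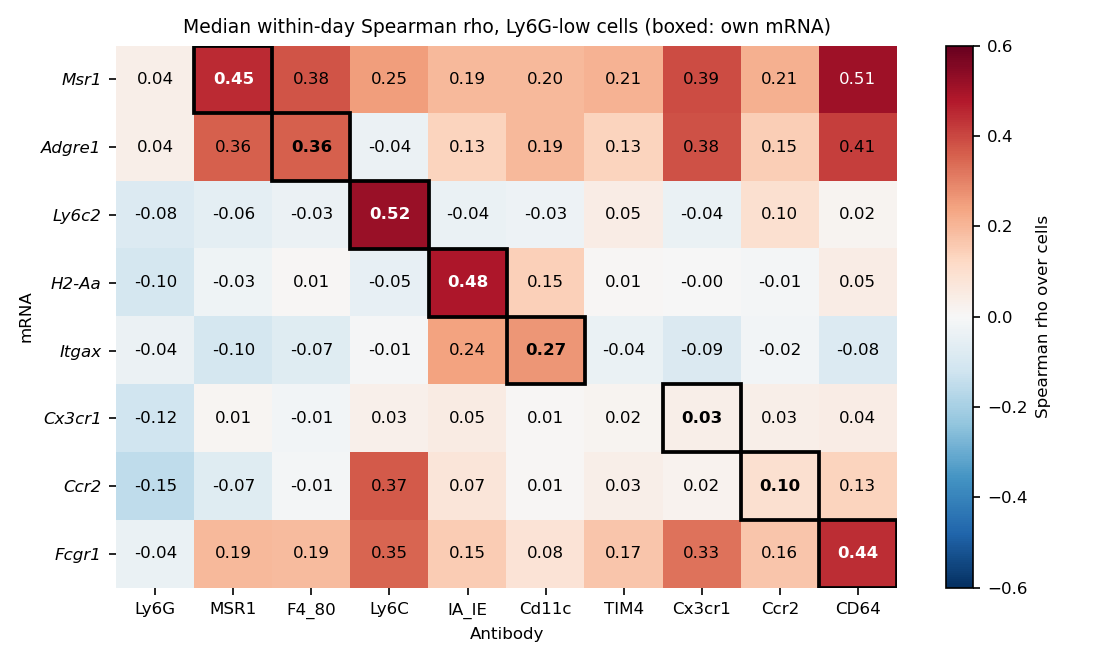
Median within-day Spearman rank correlation in Ly6G-low cells between the 10 antibodies (columns) and the 8 mRNAs that could be ranked (rows), with own pairs boxed. Ly6c2 and H2-Aa stand out under their own antibody (0.520 and 0.484), while Msr1 and Adgre1 have values of 0.358 to 0.507 under MSR1, F4_80, Cx3cr1 and CD64.

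In Ly6G-low cells Msr1 had rank correlations of 0.449 with its own antibody, 0.376 with F4_80, 0.390 with Cx3cr1 and 0.507 with CD64. Adgre1 had 0.361 with MSR1, 0.358 with its own antibody, 0.381 with Cx3cr1 and 0.413 with CD64. For both mRNAs an antibody against another protein had a higher rank correlation than their own. In the same cells Ly6c2 had rank correlations of at most 0.0957 and H2-Aa of at most 0.145 with any antibody but its own. Itgax had 0.265 with Cd11c and 0.243 with IA_IE.

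**Figure D5:**
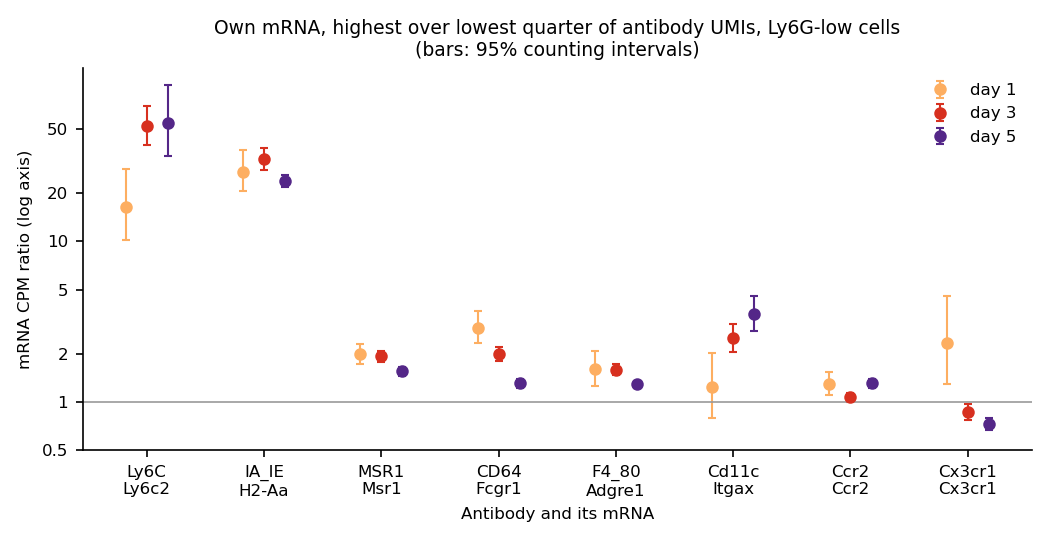
Ratio of own mRNA CPM between the cells in the top and the bottom 25% of each antibody (log axis), in Ly6G-low cells on days 1, 3 and 5, with 95% counting intervals. Ly6C and IA_IE lie between 16.4 and 54.5, and the other 6 antibodies between 0.730 and 3.53.

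The ratio of the top to the bottom 25% reached 2 on all 3 days for 2 of 10 antibodies, again Ly6C and IA_IE. Genes with such a ratio made up 0.491% of the genes tested for Ly6C and 0.436% for IA_IE. For the antibodies whose own mRNA was not among them the share was 0.392% for Cx3cr1, 0.295% for CD64, 0.271% for MSR1, 0.206% for Ly6G, 0.189% for F4_80, 0.177% for Cd11c, 0.0823% for Ccr2 and 0.0138% for TIM4. For the other antibodies with a ranked mRNA the highest single value was 3.53, for Cd11c on day 5.

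Between the classes, 1 of the 10 mRNAs, Ly6g, was at least 2-fold higher in Ly6G-high cells on all 3 days and 0 were at least 2-fold lower. Among all genes with at least 10 CPM in either class, 4.46% were so much higher and 0.204% lower. Timd4 did not reach 10 CPM, and Ly6g reached it only in Ly6G-high cells of day 1, so its passing is no support. Of the antibodies, Ly6G was 2-fold higher by the cut itself and none of the other 9 was 2-fold higher or lower by means on all days. In marker-concordant cells 5 mRNAs (Msr1, H2-Aa, Cx3cr1, Ccr2 and Fcgr1) and 1 antibody (CD64) were 2-fold lower in Ly6G-high cells, beside 16.5% of all genes, and 1 mRNA (Ly6g) was 2-fold higher, beside 9.18%.

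From day 1 to day 5 in Ly6G-low cells, 2 mRNAs (Adgre1 and Cx3cr1) were at least 1.5-fold higher, where 18.2% of genes were, and 4 (Msr1, Ly6c2, Itgax and Ccr2) at least 1.5-fold lower, where 10.4% were. By mean antibody UMIs, IA_IE and CD64 were so much higher and Ly6C lower. By UMIs per cell and CPM, only Ly6C with Ly6c2 of the 10 pairs passed that fold in 1 direction by both readings in this class. These readings are on unlike scales, and which pairs pass can depend on the scale. Before scaling to depth, H2-Aa came to 3406 UMIs in 252 cells on day 1 and 30577 UMIs in 1344 cells on day 5. Itgax came to 203 and 973 UMIs and Ccr2 to 1680 and 7417 UMIs in the same cells. The fold of mRNA UMIs per cell was not counted. In Ly6G-high cells 6 mRNAs (Msr1, Adgre1, H2-Aa, Itgax, Cx3cr1 and Ccr2) were higher and 2 (Ly6g and Ly6c2) lower, where 56.8% and 11.8% of genes were, and the antibodies IA_IE and CD64 were higher. In marker-concordant Ly6G-low cells the same 2 mRNAs were higher, beside 17.8% of genes, and the same 4 lower, beside 10.1%. The median change of all genes in Ly6G-high cells was 0.71 on the log2(CPM + 1) scale, against 0.06 in Ly6G-low cells. In marker-concordant Ly6G-high cells, 2 mRNAs (Itgax and Cx3cr1, the latter from 18 and 15 UMIs with a ratio of 1.76, 0.839 to 3.76) were higher beside 54.3% of genes, 4 (Ly6g, Msr1, Ly6c2 and Fcgr1) were lower beside 8.81%, and no antibody passed the fold.

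The blood and heart pool of the series, a separate CD11b+ sort in which neutrophils and other cells had been brought to about equal numbers, was read over 9999 cells for the 5 pairs it shares. Its hashtags were not paired with conditions here, so each rank correlation was taken once over the cells of a class rather than as a median of days. Its classes were split at its own Ly6G cut of 3.95 UMIs, found by Otsu's method, and not at 200. The Ly6G median there was 19 UMIs in 6557 Ly6G-high and 1 in 3442 Ly6G-low cells, while the Ly6C median in Ly6G-low cells was 128. In its Ly6G-low cells Ly6c2 took place 1 of 8731 genes for the Ly6C antibody (rank correlation 0.803), H2-Aa place 1 for IA_IE (0.411), Fcgr1 place 1 for CD64 (0.171) and Msr1 place 8 for MSR1 (0.105). In Ly6G-low cells Ly6c2 and H2-Aa were thus at or next to the top in both pools. In Ly6G-high cells of the second pool they took places 58 and 116 of 5299.

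Ly6g in its Ly6G-high cells was at 156 CPM (151 to 160) and was found in 26.0% of cells at a median of 3536 gene UMIs, against 1.32 CPM and 0.930% of Ly6G-low cells at 12462. It took place 1 of 5299 genes for the Ly6G antibody there, with a rank correlation of 0.182. In the heart pool its median in Ly6G-high cells was 0.0493, without a place, since 4.54% of those cells held it. The pools differ in cell source and in staining at once, and these cannot be told apart.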

How the data were processed

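Gene and antibody UMI counts per barcode were used as deposited by the authors, in a 10x 3' version 3 library with antibody and hashtag tags. Per the file headers Cell Ranger 3.0.2 wrote the matrices, and per the submitters' processing notes the build was mm10 (GRCm38), which gene coordinates use. The annotation release is not given in the sources used here, and every gene ID of the pairs matched GENCODE M21.

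Barcodes with at least 200 genes, at most 10% mitochondrial UMIs and exactly 1 hashtag, called by a 2-part Gaussian mixture of log10 counts, were kept. Barcodes with several hashtags were dropped as doublets. No doublet caller was run, so doublets of 1 hashtag remain. The Ly6G cut was 200 UMIs. CPM are summed UMIs per 1000000, with exact 95% Poisson intervals, and ratios have exact conditional intervals. A fold against a class at 0 would use a floor of 3 counts over the class. Spearman rank correlation was taken over cells within day and class, between antibody UMIs and gene UMIs per 10000, and genes in at least 5% of the class were ranked by the median of the days. Thinning drew 2000 gene UMIs per cell, which left out 35 cells of the Ly6G-high and 65 of the Ly6G-low class beneath that depth. The ranking was tested on simulated data with 200 genes tied to an antibody among 9863 genes in 1182 cells, of which 198 (99%) came out in the first 200. The simulated antibody was drawn independently of the gene UMIs of the cell. In Ly6G-low cells the real antibodies had rank correlations of up to 0.623 with gene UMIs. The simulation thus cannot show how reliable the places are for such antibodies.

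Named genes were the 10 pairs, the 3 genes of highest median rank correlation per antibody in Ly6G-low cells (all cells for Ly6G; mitochondrial, ribosomal, haemoglobin, Gm and Rik genes left out) and lists of related genes, of which 1 gene is not reported here. Members and lists were chosen with earlier results of these data known. Alternatives covered the Ly6G cut, filters, hashtags, scaling and partner genes. Medians, marker-concordant cells and a TIM4 scaling were added after seeing the data. Python 3.11.15, numpy 2.4.6, scipy 1.17.1, pandas 2.3.3, scikit-learn 1.9.0, scikit-image 0.26.0 and matplotlib 3.10.9 were used.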

Additional observations from a re-analysis of the deposited data

Results flagged for a closer look

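For 4 mRNAs the CPM on day 5 relative to day 1 lay on opposite sides of 1 in the 2 classes. Msr1 was 1.67 times as abundant in Ly6G-high and 0.446 times in Ly6G-low cells, Itgax 1.85 and 0.615 times, Ccr2 1.60 and 0.566 times, and Fcgr1 1.36 and 0.699 times. With 1 pooled sample per day the difference between the classes was not tested. In marker-concordant cells the values were 0.593 and 0.444 for Msr1, 5.30 and 0.587 for Itgax, 0.810 and 0.555 for Ccr2, and 0.311 and 0.710 for Fcgr1. Of these 4, Itgax alone was on opposite sides of 1 in those cells. Beside these values, monocyte and macrophage markers in Ly6G-high cells went from 3124 to 24041 CPM, and the part of those cells in the result was not tested.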

How the results depend on the processing

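Over 15 alternatives, 157 of 171 values of the counts of members stayed within 1.5 times, 291 of 340 single values stayed close, and 14 and 47 moved. With a Ly6G cut of 100 UMIs the mRNAs higher in Ly6G-high cells went from 1 to 0. The same cut took the day 5 counts to 2 antibodies lower (Ly6G and Ly6C) and 3 mRNAs higher in Ly6G-high cells and to 0 antibodies higher in Ly6G-low cells. It also turned 2 class ratios, CD64 antibody to 1.09 and Ly6c2 mRNA to 0.717, each the middle value of the 3 days. The largest-hashtag rule gave 1 antibody lower on day 5 in Ly6G-high cells (Cx3cr1). With medians, 1 antibody (CD64) was 2-fold lower in Ly6G-high cells and 0 and 1 antibodies were higher on day 5 in Ly6G-high and Ly6G-low cells. Marker-concordant cells gave 1 antibody and 5 mRNAs lower between the classes, 0 and 1 antibodies higher on day 5 in Ly6G-high and Ly6G-low cells, and 2 mRNAs higher and 4 lower in Ly6G-high cells. The cause of these moves was not tested.

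The own mRNA was in the first 10 genes for 2 or 3 antibodies under every alternative run for it. Ly6C was among them each time and IA_IE each time but with the cut of 400 UMIs, where it took place 17. Cd11c joined them in marker-concordant cells (place 5), relative to TIM4 (place 4) and with the cut of 100 UMIs (place 9). MSR1 joined with the cut of 400 UMIs and without the 5% of cells of most gene UMIs, and CD64 with the former. No paired analysis was possible because each day had 1 pooled sample. Ly6g and Timd4 rest on at most 68 and 15 UMIs in a day and class.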
